A study of Homo sapiens with 12 samples.

Results

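CRISPR Control, an edited line of MIA PaCa-2 cells, was compared with the unedited parental line (WT). The members were chosen by label: the 3 CRISPR Control libraries and the 3 WT libraries, 6 of the 12 libraries of the series, and all 15987 of 63086 genes whose mean normalised count over the 12 libraries was at least 10. MIA PaCa-2 cells come from a human pancreatic ductal carcinoma with a mesenchymal, poorly differentiated phenotype. WT cells were not manipulated. CRISPR Control is a single line that went through editing with a CRISPR-Cas9 plasmid aimed at exon 4 of TIMP1 and, by the genotype label, carries only a silent point mutation, so it keeps the TIMP1 amino acid sequence. The other 6 libraries are 3 each of the knockout lines TIMP1 KO 1 and TIMP1 KO 2, which went through the same editing, and are used here only to show where CRISPR Control stands apart from them. All cells were grown untreated in RPMI medium with fetal calf serum. The 3 libraries of a line are biological replicates of that one line, so the p-values measure the spread between cultures of these lines and not between independently edited lines. With 1 edited control line, effects of the editing procedure, of the silent mutation, of the lower TIMP1 RNA given below and of growing a line from few cells cannot be told apart.

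A cell line in culture is a mixed population. Cells differ in chromosome copies, in DNA methylation and in which genes are switched on, and these states can be passed on to daughter cells. A line grown out of 1 or a few cells therefore carries the state of its founders, which need not be the average of the parental culture. TIMP1 itself is a secreted protein that inhibits matrix metalloproteinases, the enzymes that cleave the extracellular matrix, and it also binds receptor complexes such as CD63 and CD74. An edited line that keeps the TIMP1 amino acid sequence shows which differences from WT arise without a knockout of TIMP1. The level of the TIMP1 protein was not measured in these data.

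Depth ran from 26908701 to 36093563 reads in genes per library. Values are read counts divided by a size factor for each library (normalised counts), and differences are given on the log2(normalised count + 1) scale, CRISPR Control minus WT, with the standard error (SE) of the limma fit. A number in parentheses after a gene symbol is this log2 difference. A gene was called when its Benjamini-Hochberg adjusted p from limma was below 0.05. The carcinoma markers KRT8, KRT18 and VIM were high in all 6 libraries. Of 6 blood and immune markers, 4 had at most 3 reads in every library of both lines, as did all 4 markers of the erythroleukaemia line K562. The 3 acinar markers summed to 0 in every CRISPR Control library. The 4 fibroblast markers summed to between 8.57 and 17.0 in WT and between 47.4 and 69.1 in CRISPR Control, nearly all of it PDGFRB, while DCN and LUM were at or near 0. The 3 endothelial markers summed to between 11.3 and 16.2 in WT and between 18.98 and 29.4 in CRISPR Control.

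Of the 15987 genes tested, 53.4% differed between CRISPR Control and WT. 27.2% were higher in CRISPR Control and 26.3% were lower. Many of these differences were small: 3586 of the called genes (42.0%) differed by less than 0.5 on the log2 scale, and the median absolute difference of called genes was 0.59. At the other end, 1142 genes rose and 1204 fell by at least 1 on the log2 scale, and 149 rose and 177 fell by at least 3. The median replicate standard deviation of a gene was 0.11 in WT and 0.17 in CRISPR Control on the same scale. The 3 libraries of one line did not overlap with those of the other for 8921 genes, 55.8% of those tested.

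TIMP1 (chrX:47582408-47586789, GRCh38) is the targeted gene and was retained. Its normalised counts were 3837, 3290.2 and 3532 in WT and 2285, 2826 and 2959 in CRISPR Control, so the groups did not overlap and the CRISPR Control libraries were the lower. The mean in CRISPR Control was 75.7% of the WT mean, a log2 difference of -0.41 ± 0.09 (SE; limma adjusted p = 0.000769). TIMP1 means were 1599.6 in TIMP1 KO 1 and 1161 in TIMP1 KO 2, and CRISPR Control stood above both (log2 difference 0.74, limma adjusted p = 6.5e-07, against TIMP1 KO 1, and 1.20, limma adjusted p = 6.81e-10, against TIMP1 KO 2). TIMP1 lies inside an intron of SYN1, a gene on the opposite strand, and the strand setting of the counting is not given in the sources used here. Of 4 tested genes at the TIMP1 locus, ELK1 (0.29) and SYN1 (0.86) rose and the other 2 did not pass the test, but the SYN1 call depended on the settings. It was lost with only the 6 libraries compared (limma adjusted p = 0.0688), with no minimum mean, with equal library totals, with quantile normalization, with edgeR, with DESeq2 or without replicate 1 or 3 of CRISPR Control or replicate 1 or 2 of WT, and its difference was 0.46 without WT replicate 2 (limma adjusted p = 0.27).

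A stretch of 5 neighbouring tested genes on the long arm of chromosome 7, at chr7:142760398-142885745, was nearly silent in CRISPR Control and expressed in WT. In gene order these were PRSS2 (trypsinogen 2, a pancreatic digestive proenzyme), TRBC2 and TRBV30 (a constant and a variable segment of the T cell receptor beta locus), EPHB6 (an Eph receptor without kinase activity) and TRPV6 (an epithelial calcium channel). The normalised counts of EPHB6 were 9432, 8496 and 9103 in WT and 16.4, 8.3 and 31.9 in CRISPR Control. Those of TRBC2 were 1384, 1226 and 1264 in WT and 0.864, 9.49 and 5.49 in CRISPR Control. TRPV6 had 221, 180.0 and 276 in WT and 3.45, 2.37 and 0 in CRISPR Control. The groups lay far apart for each of these genes. TRBV30 had 36.2, 56.4 and 52.4 and PRSS2 153, 162 and 141 in WT, and neither had a single read in any CRISPR Control library.

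The mean of EPHB6 was 478-fold lower in CRISPR Control (log2 difference -9.01 ± 0.26, limma adjusted p = 1.26e-15), that of TRBC2 244-fold lower (-8.00 ± 0.36, limma adjusted p = 1.28e-12) and that of TRPV6 116-fold lower (-6.50 ± 0.35, limma adjusted p = 1.88e-11). Against the limit of 3 reads per library that a count of 0 allows, PRSS2 was at least 48.2-fold and TRBV30 at least 15.3-fold lower. Over the 125348 bases of the stretch, the annotation holds 17 genes with a read in any of the 12 libraries. 13 of them had reads in WT and 3 in CRISPR Control. Their reads summed to 9935, 11153 and 11394 in the WT libraries and to 24, 17 and 34 in the CRISPR Control libraries. PRSS1, a near-identical copy of PRSS2 that lies just before it and was too low to be tested, had at most 11 reads per library in WT and none in CRISPR Control, and reads may be split between the 2 genes. TRBV30 and TRPV6 overlap other annotated genes on the opposite strand.

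The next tested genes on both sides had near levels in both lines. Upstream, SSBP1, a mitochondrial DNA-binding protein, had means of 3928 in WT and 3966 in CRISPR Control (log2 difference 0.01 ± 0.08). Downstream, GSTK1, a glutathione transferase, had 2507 and 2599 (0.05 ± 0.07), and CASP2, a caspase, 2169 and 2068 (-0.07 ± 0.08). None of these 3 passed the test. The stretch set CRISPR Control apart from the knockout lines as well. EPHB6 means were 11400.5 in TIMP1 KO 1 and 26169 in TIMP1 KO 2 (log2 difference -9.35, limma adjusted p = 2.78e-16, against TIMP1 KO 1, and -10.55, limma adjusted p = 5.54e-17, against TIMP1 KO 2), and the other 4 genes were also lower in CRISPR Control than in each knockout line with limma adjusted p below the threshold. PRSS2 was also below WT in the knockout lines. Its means were 14.6 in TIMP1 KO 1 (limma adjusted p = 1.4e-07) and 38.0 in TIMP1 KO 2 (limma adjusted p = 4.04e-05), against 151.9 in WT. Farther out, DENND11 (-2.07) before the stretch and TCAF2 behind it were lower in CRISPR Control too. TCAF2, a regulator of TRPM8 channels, had 392, 384 and 422 in WT and 0.864, 2.37 and 4.4 in CRISPR Control, and means of 279.8 in TIMP1 KO 1 and 499.7 in TIMP1 KO 2. RNA alone does not say whether the DNA of the stretch is present, and this was not tested.

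Genes outside this stretch were nearly lost as well. Genes were counted as off in CRISPR Control when each of its libraries had at most 3 reads and the WT mean was at least 100. There were 6: HOXC12, MXRA5, the long noncoding RNAs UCA1 and LINC02154, PRND, and PRSS2 from the chromosome 7 stretch itself. The reverse list, off in WT, had 5 genes: MAL2, DCLK1, KCNV1, HGF and MME. All 5 are protein coding, as are 4 of the 6.

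HOXC12, a homeobox transcription factor of the posterior body axis (chr12:53954903-53958956), had 2971, 2789 and 2929.9 in WT and 2.59, 3.56 and 2.2 in CRISPR Control, at least 920.0-fold lower (limma adjusted p = 2.21e-21). Its means were 3716 in TIMP1 KO 1 and 3186 in TIMP1 KO 2, so only CRISPR Control of the 4 lines lacked it (log2 difference -9.96, limma adjusted p = 5.66e-22, against TIMP1 KO 1, and -9.73, limma adjusted p = 1.71e-21, against TIMP1 KO 2). MXRA5, a secreted matrix-remodelling protein (chrX:3308565-3346652), had 1244, 1268 and 1295 in WT and 0.864, 2.37 and 2.2 in CRISPR Control, at least 403-fold lower (limma adjusted p = 7.16e-18), and was present in the knockout lines with means of 1005 in TIMP1 KO 1 and 380.0 in TIMP1 KO 2. The other genes among the 12 largest falls at a mean of at least 100 were COL1A2, FFAR4 (a receptor for long-chain fatty acids), COL6A3, RGS4 (a brake on G protein signalling), TMEM255A and PAX2 (a kidney and urogenital transcription factor), beside TCAF2 and the 3 genes of the chromosome 7 stretch above.

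PAX2 had 1772, 1705 and 1975 in WT and 19, 13 and 27.5 in CRISPR Control, 91.6-fold lower. FFAR4 had 857, 878 and 787 in WT and 5.18, 8.3 and 4.4 in CRISPR Control, 141-fold lower. COL6A3, a chain of the microfibril-forming collagen VI, had 802, 637 and 731 in WT and 5.18, 5.93 and 4.4 in CRISPR Control, 139.9-fold lower. These 3 genes, TMEM255A (-6.58), HOXC12 and MXRA5 were lower in CRISPR Control than in both knockout lines as well, each with limma adjusted p below the threshold. Other falls were shared by all 3 edited lines. COL1A2, a chain of type I collagen, had 8506, 8301 and 7845 in WT and 9.5, 10.7 and 5.49 in CRISPR Control, and no read in any library of the knockout lines. RGS4 had 1097, 1197 and 1142 in WT and 14.7, 9.49 and 7.69 in CRISPR Control, and means of 0 in TIMP1 KO 1 and 0.292 in TIMP1 KO 2. UCA1 (404, 320.0 and 352 in WT) and PRND, a prion-like gene (109.8, 129 and 140.0 in WT), were at or within 1 read of 0 in all 3 edited lines. LINC02154 (140, 186 and 183 in WT) had at most 2 reads per CRISPR Control library. It had means of 0 in TIMP1 KO 1 and 1.29 in TIMP1 KO 2. LTBR, the lymphotoxin beta receptor, had 388, 346 and 353 in WT and 1.73, 0 and 4.4 in CRISPR Control, and means of 3.38 in TIMP1 KO 1 and 3.01 in TIMP1 KO 2. Its difference from the knockout lines did not pass the test (log2 difference -0.84, limma adjusted p = 0.13, and -0.70, limma adjusted p = 0.2).

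**Figure D1:**
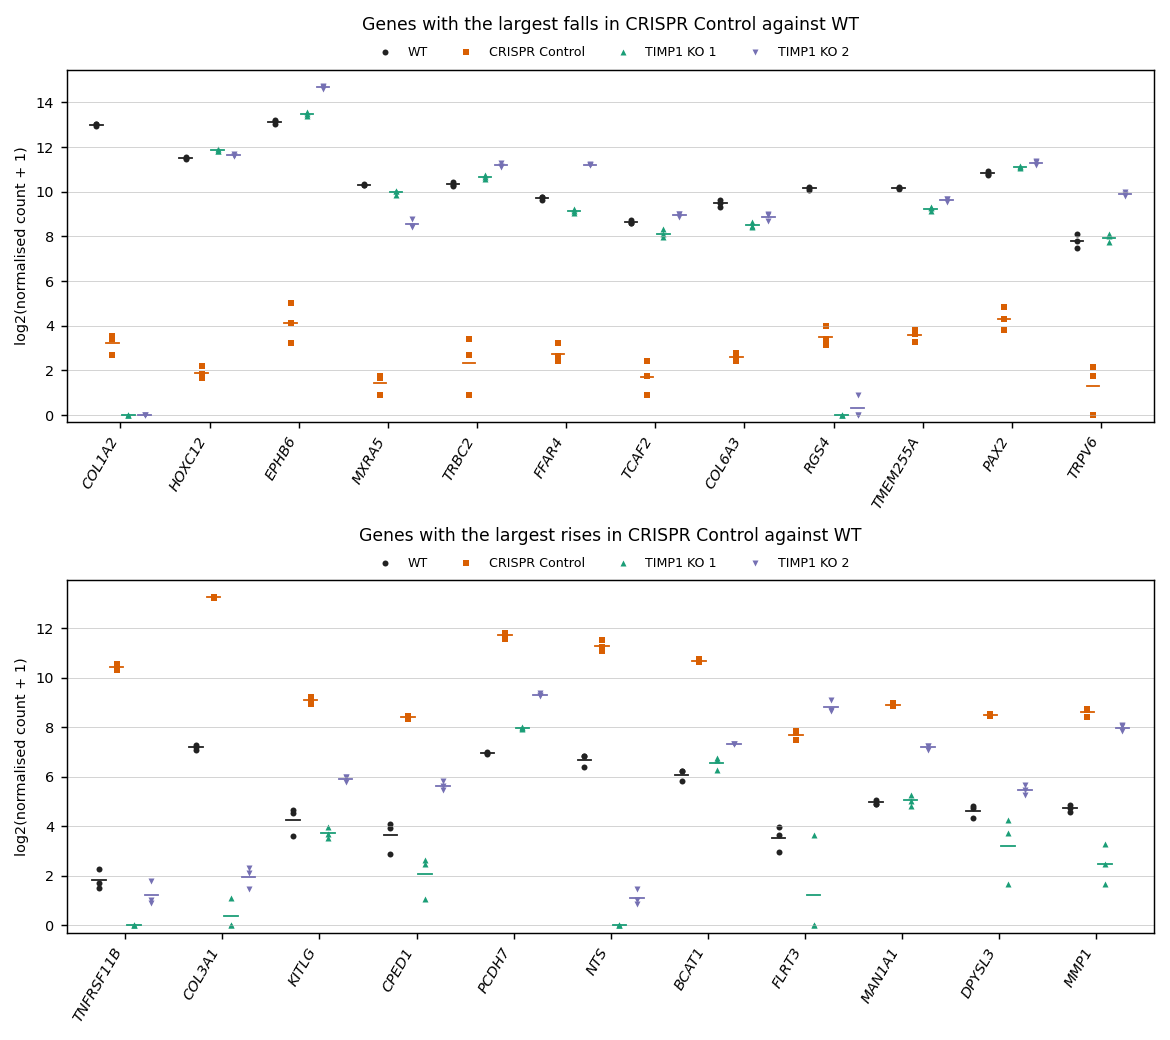
Level of 12 genes with the largest falls (top) and of 11 among those with the largest rises (bottom) in CRISPR Control against WT, as log2(normalised count + 1), in the 12 libraries. Points are libraries and short lines are line means. WT and CRISPR Control do not overlap for any of the 23 genes, and the knockout lines fall on either side.

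The largest rises were led by TNFRSF11B, osteoprotegerin, a secreted decoy receptor for RANKL, which had 2.26, 1.82 and 3.81 in WT and 1284, 1492 and 1329.7 in CRISPR Control, 520.2-fold higher (limma adjusted p = 1.4e-12). COL3A1, the fibril-forming chain of type III collagen, had 155, 147 and 136 in WT and 9816, 9670.1 and 9873 in CRISPR Control, 66.9-fold higher (limma adjusted p = 1.38e-12). NTS, the gut peptide neurotensin, had 83.8, 112 and 112 in WT and 2165, 2974 and 2444 in CRISPR Control, 24.6-fold higher. All 3 genes were lower in the knockout lines than in CRISPR Control, with means for NTS of 0 in TIMP1 KO 1 and 1.2 in TIMP1 KO 2. KITLG, the ligand of the KIT receptor, had 11.3, 24.5 and 21.9 in WT and 594, 559 and 486 in CRISPR Control. PCDH7, a protocadherin, had 119, 128 and 123 in WT and 3619, 3058 and 3519 in CRISPR Control. BCAT1, the cytosolic branched-chain aminotransferase, had 55.5, 73.6 and 73.3 in WT and 1708, 1599 and 1597 in CRISPR Control. These 3 rises were 28.4-fold, 27.6-fold and 24.2-fold. CPED1 rose 27.9-fold. FLRT3, an adhesion protein of axon guidance, rose 19-fold, MAN1A1, a Golgi mannosidase, 15.8-fold, DPYSL3, a cytoskeletal protein of neurites, 15.1-fold and MMP1, interstitial collagenase, 15.2-fold. Of these 11 genes, FLRT3 (mean 451) and MMP1 (mean 253) were not called against TIMP1 KO 2, and the other 9 were higher in CRISPR Control than in both knockout lines.

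Of the genes off in WT, MAL2, a sorting protein of polarised epithelium, had 253, 237 and 216 in CRISPR Control, at least 78.7-fold higher (limma adjusted p = 7.83e-09). DCLK1, a microtubule-linked kinase used as a marker of tuft cells and of tumour-initiating cells in pancreas, had no read in WT and 209.9, 185 and 227 in CRISPR Control, at least 69.3-fold higher (limma adjusted p = 2.13e-10). KCNV1, a potassium channel subunit, had no read in WT and 153, 165 and 189 in CRISPR Control. HGF, hepatocyte growth factor, the ligand of the receptor MET, had 1 read in each WT library and 162, 148 and 139.6 in CRISPR Control, at least 50.1-fold higher (limma adjusted p = 2e-08). MME, the membrane peptidase neprilysin, had at most 2 reads per WT library and 139, 123 and 119.8 in CRISPR Control. In the knockout lines these 5 genes had means between 0 and 3, and each was higher in CRISPR Control than in either with limma adjusted p below the threshold. All 5 reached the minimum mean of 10 over the 12 libraries through CRISPR Control, so only a rise could be called for them. MET itself had means of 4859 in WT and 5791 in CRISPR Control (log2 difference 0.25 ± 0.08, limma adjusted p = 0.0133, or 0.0689 without CRISPR Control replicate 1 and 0.058 without WT replicate 1).

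The genes that changed most had, by median, fewer CpG sites in their promoters than the rest. CpG sites are where DNA is methylated in human cells, and promoters dense in them are mostly unmethylated and active in many tissues. RefSeq promoter windows (GRCh38.p14, 250 bases before the start) were matched by symbol for 11488 tested genes, and where a gene had several starts the one with most CpG sites was used. The median was 23 CG pairs over all of these genes and 24 in the 2971 called genes that differed by less than 0.5. It was 14 in the 119 genes that fell by at least 3 and 20 in the 111 that rose by at least 3. The 111 include genes, HGF among them, that passed the minimum mean through CRISPR Control and could only be called as rises. The share of promoters with 10 or more CG pairs was 89.5% over all, 62.2% in the large falls and 73% in the large rises. These counts are a description with no test, and methylation was not measured.

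The promoters of 4 genes with large differences show both kinds. They are given 5' to 3' on the strand of the gene, in lower case with every CG pair in capitals. LTBR and MXRA5, which were nearly lost, have 27 and 25 CG pairs in these 250 bases, COL6A3, also nearly lost, has 3, and HGF, which was gained, has 6.
LTBR, chr12:6383912-6384161, plus strand: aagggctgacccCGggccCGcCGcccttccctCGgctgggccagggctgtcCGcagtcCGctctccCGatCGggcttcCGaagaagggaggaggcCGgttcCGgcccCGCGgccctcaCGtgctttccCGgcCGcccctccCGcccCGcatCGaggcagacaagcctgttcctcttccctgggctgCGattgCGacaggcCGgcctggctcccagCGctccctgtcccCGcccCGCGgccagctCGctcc
MXRA5, chrX:3346653-3346902, minus strand: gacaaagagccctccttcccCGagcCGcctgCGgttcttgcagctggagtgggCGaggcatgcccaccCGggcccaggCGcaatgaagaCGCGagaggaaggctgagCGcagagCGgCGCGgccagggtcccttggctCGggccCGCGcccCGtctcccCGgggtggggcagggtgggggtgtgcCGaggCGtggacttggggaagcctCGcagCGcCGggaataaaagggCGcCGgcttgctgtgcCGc
COL6A3, chr2:237414165-237414414, minus strand: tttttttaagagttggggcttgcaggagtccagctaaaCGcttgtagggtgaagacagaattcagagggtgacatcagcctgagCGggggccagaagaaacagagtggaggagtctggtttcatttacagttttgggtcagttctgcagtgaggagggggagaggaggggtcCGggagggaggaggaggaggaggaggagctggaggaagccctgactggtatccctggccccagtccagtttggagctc
HGF, chr7:81770048-81770297, minus strand: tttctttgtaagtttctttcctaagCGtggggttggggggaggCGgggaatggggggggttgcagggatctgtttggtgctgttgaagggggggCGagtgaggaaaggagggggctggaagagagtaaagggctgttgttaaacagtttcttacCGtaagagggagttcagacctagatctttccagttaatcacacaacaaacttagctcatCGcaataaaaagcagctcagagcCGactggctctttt

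Genes of the extracellular matrix moved widely and in both directions. Collagens form the fibrils and sheets of the matrix, and each type is built from its own set of chains. Of the 32 tested collagen chains, 18 rose, 9 fell and 5 did not pass the test, 84.4% called against 53.4% of all genes, with a median log2 difference of 0.84 against 0.01 for all genes. The fibrillar chains split. Type I collagen is mostly a trimer of COL1A1 and COL1A2 chains, and trimers of COL1A1 alone also occur. COL1A2 was nearly lost as above, while COL1A1 had 11882, 11389.7 and 11199 in WT and 8906, 7654 and 10044 in CRISPR Control, a small fall (-0.38 ± 0.11, limma adjusted p = 0.00832, or 0.0517 without CRISPR Control replicate 2). COL5A2 had 3869.8, 4165 and 4108 in WT and 36464, 33247 and 34351 in CRISPR Control, 8.57-fold higher, while COL5A1, its partner in type V collagen, had 753, 647 and 697 in WT and 293, 218 and 266 in CRISPR Control, 2.7-fold lower. COL11A1, another minor fibrillar chain, rose 8.61-fold to 1570.3, 1360.4 and 1400.0. The same split was seen in type VI collagen, where COL6A3 was nearly lost and COL6A1 (0.83) and COL6A2 (0.56) rose. All 6 tested chains of type IV collagen, the network of basement membranes, had positive differences, and 5 rose, up to COL4A6 (2.34). COL4A3 (0.35) did not pass the test, and COL4A1 (1.02) no longer passed when any 1 of the 6 libraries was left out. Also higher were COL12A1 (2.3) and COL14A1 (4.2), and lower were COL17A1 of hemidesmosomes (8.78-fold, -3.23) and COL18A1, the endostatin precursor (-0.84). A minimum of 10 over all 12 libraries keeps chains that are high in a single line, and 12 further annotated chains fell below it.

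**Figure D2:**
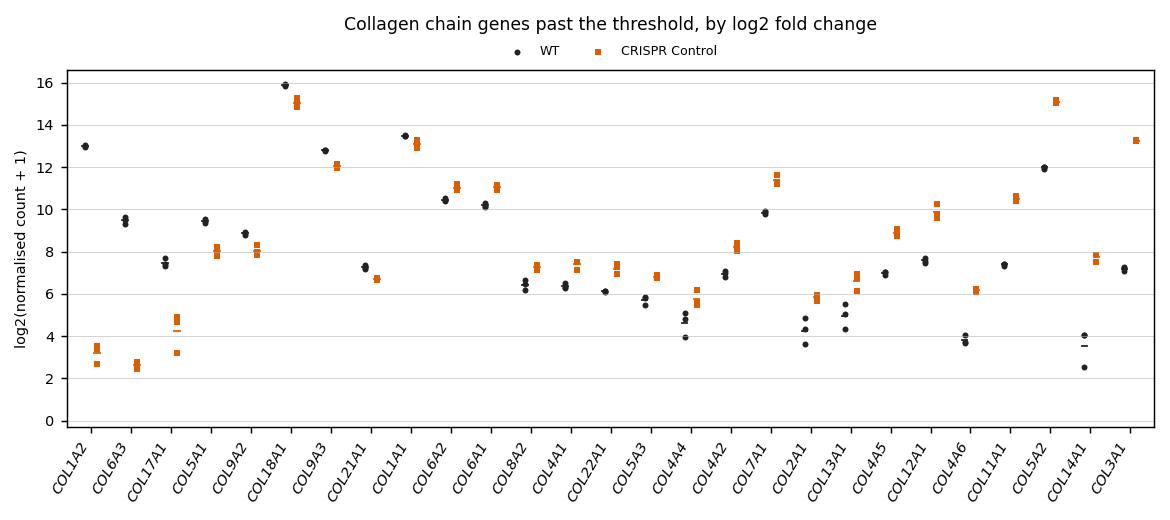
Levels of the 27 collagen chain genes past the threshold, as log2(normalised count + 1), in the 3 WT (circles) and 3 CRISPR Control (squares) libraries, ordered by log2 difference from COL1A2 to COL3A1. Short lines are line means. COL1A2 and COL6A3 drop far below WT, and COL5A2 and COL3A1 lie far above WT.

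The enzymes that modify collagen in the endoplasmic reticulum and crosslink it outside the cell went mostly down. Of 29 tested, 4 rose, 15 fell and 10 did not pass the test (median -0.22), 65.5% called against 53.4% of all genes. COLGALT2, which adds galactose to collagen, fell 6.81-fold (limma adjusted p = 8.34e-15). LOXL2 (-1.34), a crosslinking lysyl oxidase, and FKBP10 (-1.09) and P3H3 (-1.3), both of procollagen folding, fell as well. SERPINH1 (0.78), the collagen chaperone HSP47, and LOX (2.2) rose. Among matrix glycoproteins and proteoglycans, 19 of 47 rose and 20 fell, so 83% were called. LTBP2, a fibrillin-like protein, had 19307, 17153 and 19102 in WT and 1140.1, 829 and 1091 in CRISPR Control, 18.2-fold lower (limma adjusted p = 3.66e-17). CTHRC1 (-2.82), TGFBI (-1.94), CCN1 (-1.58) and CCN2 (-1.29) fell, and fibronectin, FN1, had 96.2, 99.1 and 119 in WT and 1009, 671 and 799 in CRISPR Control, 7.89-fold higher. EDIL3 (3.76), BGN (2.66) (biglycan) and FBN1 (2.71) (fibrillin 1) rose beside it.

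Of the 26 tested metalloproteinases and TIMPs, 11 rose, 7 fell and 8 did not pass the test, 69.2% called against 53.4% of all genes. The rises took in MMP1, MMP2 (1.45) (gelatinase A), MMP14 (0.63) (its membrane-bound activator), MMP16 (2.67) and TIMP2 (0.76). The falls took in MMP28 (-3.74), MMP25 (-1.66) and ADAMTS15 (-1.33). Of 17 tested TIMP1 partners with TIMP1 itself, 11 rose and 3 fell, 82.4% called. The receptors CD63 (0.99), CXCR4 (2.24) and FGFR1 (1.56) were higher and ITGB1 (-0.56) and APP (-0.48) lower. CD74 (2.07) was also higher but low, with means of 5.29 in WT and 25.8 in CRISPR Control. Its means were 7.4 in TIMP1 KO 1 and 109.8 in TIMP1 KO 2. The MMP-family list shares TIMP1, TIMP2, MMP1, MMP2, MMP7, MMP9 and MMP14 with the partner list. Of 18 integrin subunits, 6 rose, led by ITGA7 (3.01) and ITGB8 (2.78), and 5 fell, led by ITGA10 (-4.05). Of 12 laminin chains, 5 rose, among them LAMA1 (4.59) and LAMA4 (2.63), and 3 fell, among them LAMB2 (-1.02). The shares called were 61.1% for integrin subunits and 66.7% for laminin chains, against 53.4% of all genes.

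The keratins of simple epithelium, which form the intermediate filaments of pancreatic duct cells, were lower in CRISPR Control. KRT8 had 138359, 122928 and 128697 in WT and 34968, 39858 and 45063 in CRISPR Control, 3.25-fold lower (limma adjusted p = 1.25e-11). KRT18, its partner, had 58247, 51793 and 52444 in WT and 14596, 17071 and 19068 in CRISPR Control, 3.2-fold lower, and KRT19, of duct cells, had 16832, 15284 and 15006 in WT and 3792, 4635 and 5321 in CRISPR Control, 3.43-fold lower. KRT8 and KRT18 are neighbours on opposite strands whose ends overlap. AGR2, a protein disulphide isomerase of mucin-secreting cells, had 29462, 29549.6 and 28582 in WT and 3689, 4763 and 4279 in CRISPR Control, 6.88-fold lower. Each of these 4 genes was also lower than in both knockout lines. The epithelial list as a whole did not follow them: of 31 tested, 13 rose, 9 fell and 9 did not pass the test (median 0.23). The share called was 71.0%, against 53.4% of all genes. ESRP1 (3.7), an epithelial splicing regulator, PKP2 (2.01), of desmosomes, CLDN4 (1.75) and CDH3 (1.63) rose, while CDH1, E-cadherin, had means of 1189 and 1424 and did not pass the test in the fit of all 12 libraries. It passed, as higher, with only the 6 libraries compared (limma adjusted p = 0.0309) and with DESeq2 (adjusted p = 0.0248). The mesenchymal list was as mixed, with 12 of 30 higher and 11 lower, 76.7% called. SNAI2 (-4.64), a repressor of E-cadherin, fell to at most 5 reads per library, and NT5E (-1.67) (CD73) and AXL (-1.09) fell, while ZEB2 (2.31), PRRX1 (3.42) and CDH2 (0.96) (N-cadherin) rose. VIM fell slightly (-0.28 ± 0.08).

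Transcription factors of pancreas and gut identity were all called, against 53.4% of all genes: of 18 tested, 8 rose and 10 fell. GATA6 (2.39) and KLF5 (2.38), both of the classical pancreatic programme, and HNF4G (1.26) and NR5A2 (1.2) rose. EHF (-3.79), PAX6 (-2.64), FOXA2 (-0.98), GATA4 (-0.64) and SOX9 (-0.32) fell. GATA6 had 14.7, 24.5 and 17.1 in WT and 103, 121 and 81.3 in CRISPR Control. HOX genes, which hold the positional identity of a cell, went mostly down: of 26 tested, 4 rose, 14 fell and 8 did not pass the test (median -0.51), and 8 fell by at least 1. The share called was 69.2%. In the HOXC cluster, from its posterior end, HOXC13 (-1.04), HOXC12 (-9.6) and HOXC11 (-1.36) fell, HOXC10 (0.09) did not pass the test, and HOXC9 (0.34), HOXC8 (0.48) and HOXC6 (0.26) rose, while HOXC4 (-1.04) at the anterior end fell. HOXC13 and HOXC11, which flank HOXC12, kept 48.8% and 39.3% of the WT level, and HOXC12 0.0961%.

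Wnt ligands bind Frizzled receptors and stabilise beta-catenin, and AXIN2, RNF43 and LGR6 are among the genes it switches on or that amplify the signal. Of 43 tested Wnt pathway genes, 23 rose, 13 fell and 7 did not pass the test (median 0.55). The share called was 83.7%, against 53.4% of all genes. WNT10A had 132, 112 and 121 in WT and 1392, 1496 and 1801 in CRISPR Control, 12.8-fold higher (limma adjusted p = 6.72e-14), and its neighbour WNT6 had 67.9, 80.004 and 61 in WT and 656, 609.6 and 826 in CRISPR Control, 10.01-fold higher. WNT2 (5.63), WNT7A (2.63) and WNT4 (2.0) rose too, and WNT11 (-2.66) fell. AXIN2 had 69, 60.9 and 48.6 in WT and 277, 266 and 264 in CRISPR Control, 4.52-fold higher, and LGR6 (3.33) and ROR2 (2.91) rose. The secreted inhibitor SFRP1 had 2104, 2075 and 2177 in WT and 163, 177 and 222 in CRISPR Control, 11.3-fold lower (limma adjusted p = 2.68e-16), DKK3 (-1.45) fell and DKK1 (1.04) rose. Among receptors FZD7 (-1.98), FZD1 (-1.52) and FZD8 (-1.15) fell and FZD2 (0.5) rose. WNT10A, WNT6, AXIN2 and SFRP1 differed in the same direction from both knockout lines.

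Of 38 tested genes of the FGF, EGF, IGF and PDGF families, 20 rose, 11 fell and 7 did not pass the test. The share called was 81.6%, against 53.4% of all genes. FGFR1 had 2128, 2030.1 and 2132 in WT and 6418, 5359.9 and 6880.2 in CRISPR Control, 2.97-fold higher, and FGFR2 (1.9), FGFR3 (1.69), FGF2 (1.29), EREG (1.48) (epiregulin), ERBB4 (4.79) and PDGFD (2.3) rose. EGFR (-0.61), IGF1R (-0.44), BTC (-4.08) (betacellulin), IGFBP3 (-2.86) and IGFBP6 (-2.63) fell. The MAPK cascade carries growth factor signals to the nucleus. Of 31 MAPK feedback and target genes, 17 rose and 7 fell, 77.4% called. The rises took in SPRY4 (1.12), DUSP6 (0.75), ETV5 (0.84) and CCND1 (0.55). The falls took in IER3 (-2.43), FOS (-1.47), JUN (-1.13) and FOSL2 (-0.99). Of 30 YAP and TEAD targets, 14 fell, with FOXF2 (-4.34), CCN1 and CCN2 among them, and 6 rose, with AMOTL1 (3.56) and F3 (4.71) (tissue factor). That is 66.7% called against 53.4% of all genes. In the TGF-beta and BMP list, 21 of 50 rose and 15 fell, 72% called. BMP6 (-2.05), TGFB3 (-2.16) and SMAD9 (-2.55) fell and BMP7 (2.33), BMP5 (2.3) and GDF15 (2.17) rose.

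Guidance molecules steer growing axons and also migrating carcinoma cells. Of 57 tested Eph, ephrin, semaphorin, plexin, netrin, Slit and Robo genes, 28 rose, 15 fell and 14 did not pass the test (median 0.36). The share called was 75.4%, against 53.4% of all genes. EPHB6 fell with the chromosome 7 stretch, and EPHB2 (-1.89) and SEMA4B (-1.46) fell. NTN4 (2.3), EFNB2 (2.62), SEMA3A (1.71), SEMA3C (1.05), ROBO2 (5.1) and EPHA5 (5.36) rose. Of 38 cadherins and protocadherins, 16 rose, led by PCDH17 (6.33), PCDH7 and CDH18 (4.6), and 8 fell, led by PCDHGB7 (-2.6) and PCDHGC3 (-1.83) of the clustered gamma genes. The share called was 63.2%. With a minimum mean of 50 in place of 10, 14 members were called in place of 24. CDH18 was among the members below it and passed the minimum of 10 through its level in CRISPR Control. ROBO2, EPHA5, PCDH17, CDH6 (3.33) and CDH23 (2.22) passed the minimum of 10 in the same way. For ROBO2, EPHA5, PCDH17 and CDH6 a rise was the only call possible, and they are among the rises counted above. Clustered protocadherins share exons, so reads may be split between them. Of 28 TNF ligands and receptors, 9 rose and 7 fell, which is 57.1% called and near the 53.4% of all genes. TNFRSF11B and TNFRSF18 (2.37) rose, FAS (1.38) rose, and LTBR (-7.21), TNFSF15 (-3.95) and TNFRSF11A (-1.54) (RANK) fell.

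Genes of the ATF4 stress response went mostly up. ATF4 is a transcription factor made when amino acids are short or the endoplasmic reticulum is under stress, and it switches on amino acid synthesis, transport and tRNA charging. Of 34 tested members, 27 rose, 5 fell and 2 did not pass the test, with a median of 0.75 and 94.1% called against 53.4% of all genes. The medians of the 3 CRISPR Control libraries against the WT mean were 0.63, 0.75 and 0.75. ATF4 had 5546, 5136 and 5238 in WT and 8227, 9300.1 and 8725 in CRISPR Control, 1.65-fold higher. SLC7A11, the cystine transporter, had 121, 131 and 147 in WT and 1312, 1098 and 902 in CRISPR Control, 8.31-fold higher (limma adjusted p = 1.72e-12). CHAC1, which degrades glutathione, had 237, 193 and 222 in WT and 1140.1, 1218 and 1305 in CRISPR Control, 5.63-fold higher (limma adjusted p = 1.88e-12). ATF3 had 80.4, 67.3 and 59.1 in WT and 409, 381 and 338 in CRISPR Control, 5.46-fold higher. DDIT3 (1.79) (CHOP), ASNS (1.79) (asparagine synthetase), STC2 (1.64), SESN2 (1.39), TRIB3 (1.09) and PSAT1 (1.1) rose too. The 5 that fell were CBS (-0.92), PHGDH (-0.87), SLC1A5 (-0.39), PSPH (-0.25) and WARS1 (-0.25). CBS makes cystathionine, PHGDH and PSPH make serine, SLC1A5 carries glutamine and WARS1 charges the tRNA for tryptophan. ATF4, SLC7A11, CHAC1, TRIB3 and STC2 were higher in CRISPR Control than in both knockout lines. ATF3 was higher in TIMP1 KO 2, with means of 191 in TIMP1 KO 1 and 1481 in TIMP1 KO 2, and DDIT3 had 254 in TIMP1 KO 1 and 887 in TIMP1 KO 2.

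ATF4 with a C/EBP partner binds the element TGATGNAA. RefSeq windows of 250 bases before the start were searched for these letters on both strands. They were present for 7 of the 27 list members with a promoter entry (25.9%), against 268 of 11486 tested genes (2.33%). The list was written from known targets, some of them known through this element, so the share describes the list and not the change. A match is not by itself a binding site. The element is shown with its flanks, 5' to 3' on the strand of the gene, in capitals, for the members that rose (GRCh38.p14). In CHAC1, AARS1 and GARS1 it reads on the opposite strand. Its first base lies 68 bases before the start in ASNS, 42 in CEBPG, 33 in GARS1, 187 in AARS1, 191 in ATF3 and 209 in CHAC1.
ASNS, chr7:97872458-97872487, minus strand: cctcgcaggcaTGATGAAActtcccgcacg
CEBPG, chr19:33374060-33374089, plus strand: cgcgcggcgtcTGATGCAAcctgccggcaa
ATF3, chr1:212565205-212565234, plus strand: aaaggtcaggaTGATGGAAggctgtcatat
CHAC1, chr15:40953251-40953280, plus strand: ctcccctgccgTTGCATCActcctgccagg
AARS1, chr16:70289675-70289704, minus strand: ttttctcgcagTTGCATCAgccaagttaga
GARS1, chr7:30594834-30594863, plus strand: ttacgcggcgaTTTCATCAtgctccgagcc
The log2 differences of these 6 genes were 1.79, 0.83, 2.44, 2.49, 0.25 and 0.87 in that order. SLC1A5, which fell, also holds the element.

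NRF2 switches on defences against oxidants. Of 26 tested targets, 15 rose, 9 fell and 2 did not pass the test, 92.3% called. HMOX1, haem oxygenase 1, had 1273, 1142 and 1267 in WT and 7060.3, 8326 and 8974 in CRISPR Control, 6.62-fold higher (limma adjusted p = 4.8e-15), and was higher than in both knockout lines (means 948 in TIMP1 KO 1 and 970.2 in TIMP1 KO 2). FTH1, the ferritin heavy chain, had 10599.9, 9975 and 10511 in WT and 23313, 26588 and 32843 in CRISPR Control, 2.66-fold higher, and UGDH (1.73), ME1 (1.69), TXNRD1 (1.0) and NQO1 (0.75) rose. ABCC3 (-1.45), ABCC1 (-0.95) and PGD (-0.86) fell. SLC7A11 belongs to this list and to the ATF4 list. Of 23 cytosolic heat shock genes, 14 rose, among them HSPA4 (0.71), BAG3 (0.83) and DNAJA4 (1.67), and only DNAJB6 (-0.74) fell. Of 27 chaperones of the endoplasmic reticulum, 9 rose and 7 fell, with HERPUD1 (0.94) and HSPA5 (0.32) (BiP) higher and HSP90B1 (-0.64) and PDIA4 (-0.54) lower. The shares called were 65.2% for the heat shock genes and 59.3% for these chaperones, against 53.4% of all genes.

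Hypoxia and glycolysis genes went mostly down: of 37 tested, 7 rose, 19 fell and 11 did not pass the test (median -0.18). The share called was 70.3%. EPAS1, the hypoxia-inducible factor 2 alpha, had 3894, 3578 and 4050.1 in WT and 303, 206 and 268 in CRISPR Control, 14.8-fold lower (limma adjusted p = 3.13e-16), and was lower than in both knockout lines (means 4483 in TIMP1 KO 1 and 7599 in TIMP1 KO 2). NDRG1 (-2.22), PFKL (-1.53), PFKP (-0.79), PDK1 (-1.09) and GAPDH (-0.41) fell, while STC1 (2.21) and ADM (0.98) rose. STC2 belongs to this list and to the ATF4 list. Of 33 cholesterol genes, 10 rose and 14 fell, 72.7% called. The exporters ABCA1 (2.21) and ABCG1 (1.95) were higher and LSS (-1.12), of late cholesterol synthesis, was lower. Of 15 mitochondrial transcripts, 5 fell, led by MT-ATP6 (-0.62), and MT-RNR1 (0.37) rose. The 40% called by limma lay below the 53.4% of all genes, but edgeR and DESeq2 each called 10 of the 15.

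CX3CL1, the chemokine fractalkine, which draws NK cells and T cells, had 4130.2, 3733 and 4041 in WT and 143, 115 and 158 in CRISPR Control, 28.6-fold lower (limma adjusted p = 2.51e-18), against means of 12980.1 in TIMP1 KO 1 and 9101 in TIMP1 KO 2. CXCL5, a neutrophil attractant, had 187, 369 and 289 in WT and 21.6, 15.4 and 3.3 in CRISPR Control, 20.9-fold lower, and was near 0 in the knockout lines. CXCL1 (-1.43) and CSF1 (-0.91) fell, and IL18 had 229.8, 251 and 243 in WT and 1159, 1515 and 1205 in CRISPR Control, 5.36-fold higher. In all, 6 of 21 tested cytokine genes rose and 7 fell, 61.9% called against 53.4% of all genes. Of 21 ligands of NK cell receptors and checkpoints, 11 rose, among them VSIR (1.84) (VISTA), ULBP1 (1.64), NECTIN3 (1.64), CD276 (0.55) (B7-H3) and CD47 (0.5), and 3 fell: RAET1G (-2.32), NT5E and MICA (-0.4). Of 64 interferon-stimulated genes, 25 rose, led by HERC5 (1.5) and with IFIH1 (1.28), an RNA sensor, among them, and 16 fell, led by RTP4 (-2.49) and OASL (-2.27). The shares called were 66.7% for the receptor and checkpoint ligands and 64.1% for the interferon-stimulated genes. Of 21 genes of MHC class I presentation, 4 rose and 7 fell (52.4% called against 53.4% of all genes), with TAPBPL (-1.99) and TAPBP (-1.09) (tapasin) lower and PSMB9 (0.82) and HLA-E (0.39) higher. B2M had means of 10088 and 10605 and did not pass the test. Of 3 tested genes of MHC class II, CD74 (2.07) and CTSS (0.92) rose and CIITA (0.71) did not pass the test. Of 29 NF-kB genes, 7 rose and 11 fell (62.1% called), with TNFAIP2 (1.16) higher and BIRC3 (-0.86) and BCL2A1 (-1.0) lower.

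Most genes of mitosis and DNA replication did not pass the test, and those that did differed by less than 1. Of 61 genes of mitosis and chromosome segregation, 8 rose and 13 fell, which is 34.4% called against 53.4% of all genes. CCNB1 (0.51) and CDC25B (0.6) rose and ESPL1 (-0.73) and ANLN (-0.52) fell. MKI67 had 18106, 16584 and 17649.9 in WT and 17347, 10298 and 12325 in CRISPR Control, so the groups overlapped through replicate 1 of CRISPR Control, which lay above the other 2 (log2 difference -0.42 ± 0.13, limma adjusted p = 0.00923, or 0.0688 without CRISPR Control replicate 2). Of 57 genes of DNA replication, 5 rose and 21 fell (45.6% called), among them CDC45 (-0.79), POLD1 (-0.78), LIG1 (-0.78) and PCNA (-0.42). Of 28 cyclins, E2F factors and CDK inhibitors, 9 rose and 5 fell, and the 50% called lay below the share over all genes. Cyclin D2, CCND2, rose 24.5-fold to 154, 197 and 211, and cyclin D1, CCND1, had 9327, 10374 and 10124 in WT and 14771, 14117 and 14878 in CRISPR Control. Of 85 genes on the cytosolic ribosomal protein list, 47 rose, RPL7L1 (-0.3) alone fell and 37 did not pass the test (median 0.29). The 56.5% called was near the 53.4% of all genes, so it is the direction that differed, as 27.2% of all genes were higher. The list was matched by symbol and takes in the ribosomal protein-like genes RPL7L1 and RPS27L. RPS27L (0.95), RPL32 (0.85) and RPL14 (0.81) rose most. The medians of the 3 CRISPR Control libraries were 0.08, 0.46 and 0.30, so replicate 1 was close to WT. The 48 called members became 65 without CRISPR Control replicate 1 and 36 without replicate 2.

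Most genes that set or read DNA methylation and Polycomb marks did not pass the test. Of 45, 7 rose and 14 fell (46.7% called), none by 1 or more. The DNA methyltransferases DNMT1 (-0.47), DNMT3A (-0.56) and DNMT3B (-0.48) and UHRF1 (-0.47), which guides DNMT1 to newly copied DNA, fell, and the Polycomb genes SUZ12 (0.44) and JARID2 (0.63) rose while EZH2 (-0.28) fell. Of 34 imprinted genes, 16 rose and 10 fell, 76.5% called against 53.4% of all genes. H19, a maternally expressed noncoding RNA, had 9076, 8625 and 8704 in WT and 87738, 86377 and 101566 in CRISPR Control, 10.4-fold higher (limma adjusted p = 8.9e-15), and its paternally expressed neighbour IGF2 (1.05) rose 2.08-fold. In the knockout lines H19 had means of 525 in TIMP1 KO 1 and 1545 in TIMP1 KO 2. PEG10 (1.46), SGCE (0.87) and PPP1R9A (1.74), which lie side by side on chromosome 7, rose together, as did MEG3 (0.78) and MEG8 (0.55) on chromosome 14, while PLAGL1 (-1.42) and ZNF597 (-3.56) fell. Of 7 tested cancer-testis genes, TEX15 (3.32), HORMAD1 (2.21) and PRAME (0.67) rose and PIWIL2 (-1.83), STK31 (-1.72), PIWIL4 (-1.47) and SYCP2 (-1.19) fell. Of 418 ZNF zinc finger genes, 101 rose and 59 fell, 38.3% called, and 20 changed by 1 or more.

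**Figure D3:**
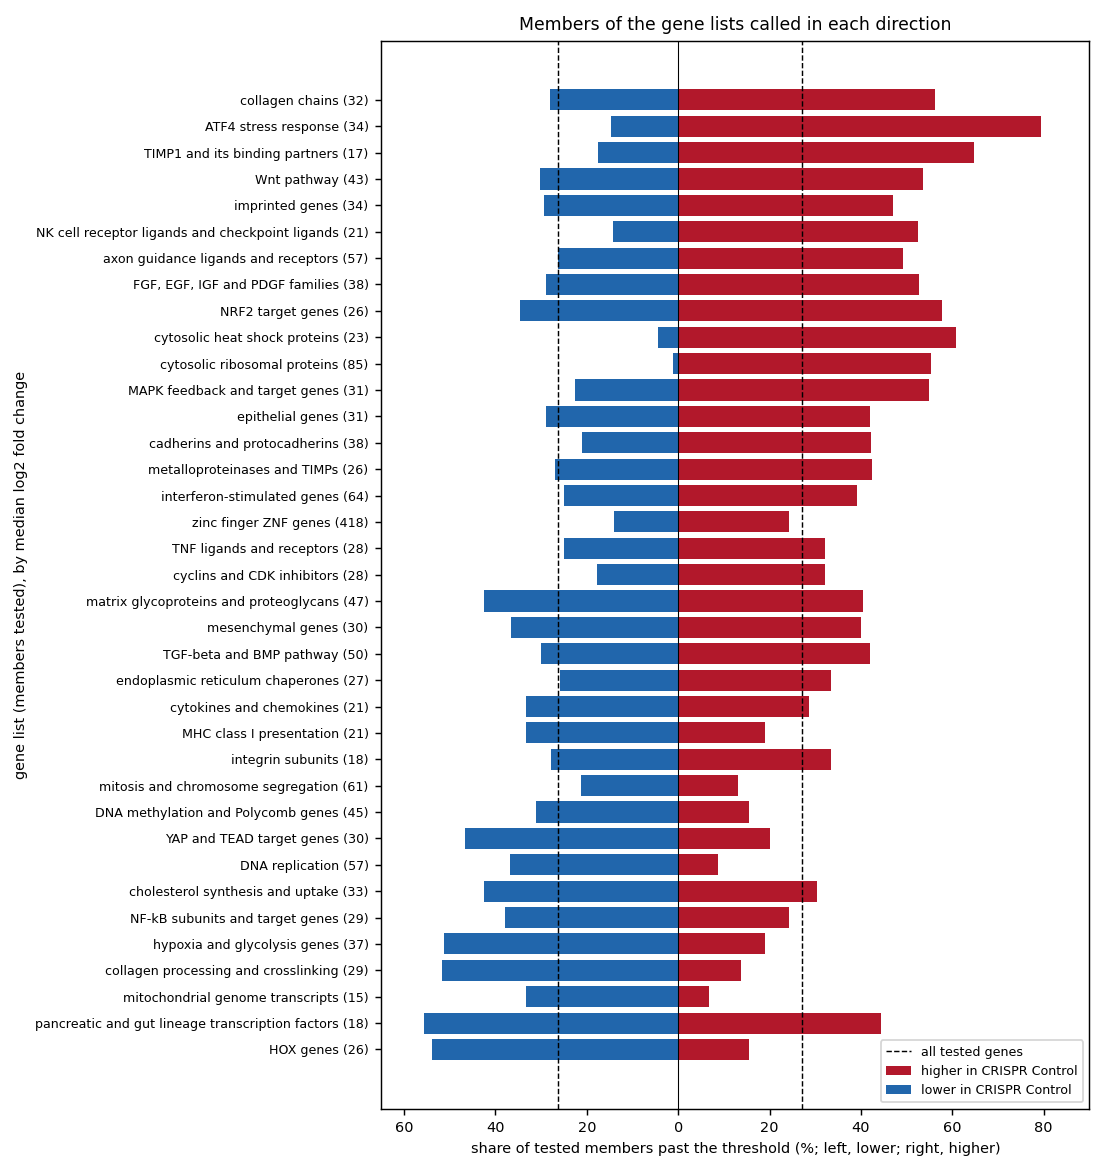
Share of the tested members of each gene list that was higher (right, red) or lower (left, blue) in CRISPR Control than in WT, in percent, for the lists described here with at least 15 tested members, ordered by median log2 difference. Dashed lines mark the shares over all tested genes, 27.2% higher and 26.3% lower. The ATF4, heat shock and ribosomal protein lists reach far to the right with few members on the left, and HOX genes and collagen processing enzymes reach to the left.

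Direction also followed the chromosomes. On chromosome 21 most tested genes fell (91 of 165 lower, 16 higher, median -0.47), and so did many on chromosome 14 (260 of 506 lower, 47 higher, median -0.31) and chromosome 20 (207 of 442 lower, 51 higher, median -0.23). The reverse held for chromosome 5 (322 of 706 higher, 98 lower, median 0.25), chromosome 3 (388 of 862 higher, 114 lower, median 0.25) and chromosome 2 (446 of 1086 higher, 172 lower, median 0.19). Over all tested genes 27.2% were higher and 26.3% lower. To place this more finely, the median log2 difference was taken in every window of 31 neighbouring tested genes, and overlapping windows with a median of at least 0.5 in either direction were merged into blocks. This is a description with no test, and the blocks were picked as the extremes of all windows. There were 19 blocks, 10 lower and 9 higher.

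The block with the most tested genes lay on chromosome 14 and ended at FOXA1 (chr14:19131842-37596059). It held 129 tested genes, of which 90 fell and 11 rose, with a median of -0.58, or 0.667 of the WT level. The medians of the 3 CRISPR Control libraries over these genes were -0.60, -0.56 and -0.56, while TIMP1 KO 1 and TIMP1 KO 2 had 0.12 and 0.18 against WT. Of its 3 most expressed genes, LRP10 (-0.92), an endocytic receptor, and SUPT16H (-0.69), a histone chaperone, fell. The end of chromosome 21 from IFNGR2 (chr21:33403413-46669249) had 73 of 114 genes lower and 8 higher, a median of -0.51 and library medians of -0.52, -0.60 and -0.55. Its 3 most expressed genes were COL18A1 (-0.84), PTTG1IP (-0.81) and ETS2 (-2.72), and CBS, of the ATF4 list, lies in it. On chromosome 1 (chr1:101786340-113132260) 48 of 69 genes fell and 4 rose. There TIMP1 KO 2 was also below WT (median -0.35).

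At the tip of the short arm of chromosome 6 (chr6:291630-4135597) 23 of 35 genes fell and none rose, with a median of -0.69 and library medians of -0.66, -0.64 and -0.64. It contains the forkhead genes FOXQ1, FOXF2 and FOXC1, regulators of epithelial and mesenchymal differentiation. FOXQ1 had 2067, 2057 and 2096 in WT and 61.3, 54.6 and 57.1 in CRISPR Control, 35.9-fold lower (limma adjusted p = 3.07e-19). FOXF2 had 1673, 1433 and 1578 in WT and 72.6, 58.1 and 103 in CRISPR Control, 20.02-fold lower, and FOXC1 (-1.12) fell less. A run of 7 neighbouring tested genes that ends at FOXCUT, with the noncoding RNAs LINC01394 and FOXF2-DT at 0 reads in each CRISPR Control library, fell by 1.73 to 6.17 on the log2 scale. In the knockout lines FOXQ1 had means of 2448 in TIMP1 KO 1 and 2526 in TIMP1 KO 2. GMDS (0.22), the next large gene, did not pass the test, but passed as higher without CRISPR Control replicate 1 (limma adjusted p = 0.0277). On chromosome 17 (chr17:42188799-42980433) 23 of 31 genes fell and none rose (median -0.60). Higher blocks lay on chromosomes 2, 3, 5, 8 and 13. The 3 on chromosome 3 together held 182 tested genes, of which 119 rose and 8 fell. Their medians ran from 0.51 to 0.52, or 1.42 to 1.43 of the WT level, and RPL14 (0.81), RPL32 (0.85) and RPSA (0.67) map there. Gene copy number was not measured, and its part in these blocks was not tested.

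**Figure D4:**
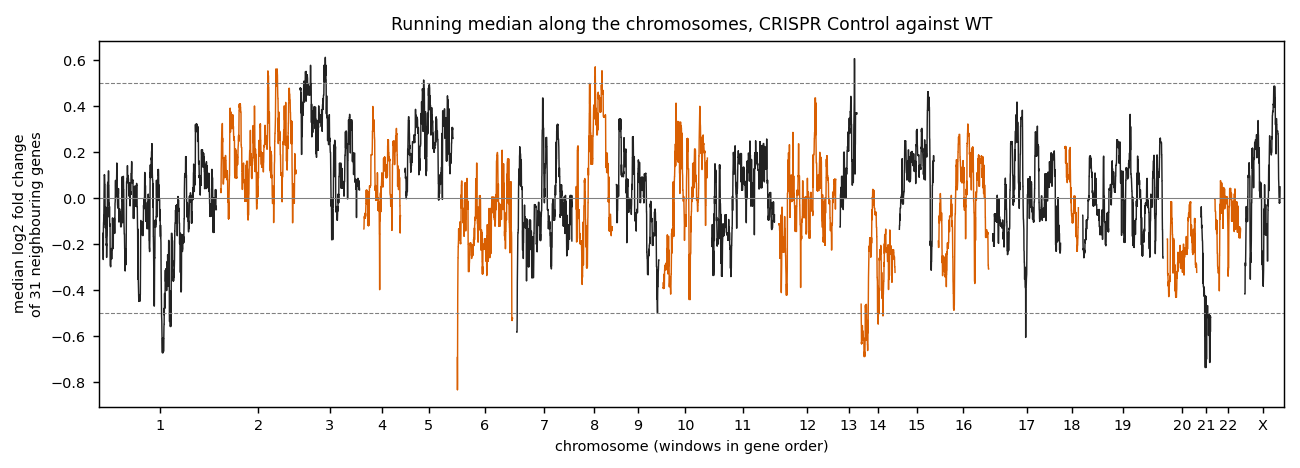
Median log2 difference, CRISPR Control minus WT, of each window of 31 neighbouring tested genes (y axis), with windows in gene order along chromosomes 1 to 22 and X (x axis, colours alternate by chromosome). Dashed lines mark 0.5 in either direction. Chromosomes 14 and 21 and the start of chromosome 6 dip below the lower line, and parts of chromosomes 2, 3, 5, 8 and 13 reach above the upper one.

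Short runs of neighbours that moved together were also counted, by a rule chosen after the values had been seen: at least 3 tested genes in a row, all called, in the same direction and by at least 1.5. There were 24 lower runs with 80 genes and 16 higher runs with 54 genes. Beside the chromosome 7 and chromosome 6 runs, the connexin genes of chromosome 13 fell together. GJB2 had 2439, 2321 and 2524 in WT and 57.9, 71.2 and 54.9 in CRISPR Control, 39.6-fold lower, GJB6 (-5.98) and GJA3 (-2.97) fell with it, and all 3 form gap junction channels. On chromosome 12 LTBR lay in a run with SCNN1A (-2.79), an epithelial sodium channel subunit whose end overlaps it on the opposite strand, CD27-AS1 (-2.38) and TAPBPL. The lipid transporter genes ABCA8 (-5.89), ABCA6 (-5.09) and ABCA10 (-3.24) fell together on chromosome 17, and PDGFRA (-3.12) and KDR (-3.36) with GSX2 (-2.01) on chromosome 4. MXRA5 was the end of a run on chromosome X with ARSL (-3.4) and LINC01546 (-4.0). Among the higher runs, WNT6 and WNT10A lay with CYP27A1 (1.87), CDK5R2 (2.52) and FEV (2.42) on chromosome 2. HGF was next to CACNA2D1 (1.83), PCLO (2.4), SEMA3E (2.01) and SEMA3A on chromosome 7. TNFRSF11B, MAL2 and CCN3 (3.95) were neighbours on chromosome 8, and ARHGAP28 (3.77), LAMA1 and PTPRM (2.77) on chromosome 18.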

How the data were processed

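RNA of 12 MIA PaCa-2 libraries, 3 from each of 4 lines, was sequenced. The authors trimmed reads with Cutadapt, aligned them to GRCh38 with STAR, assigned them to genes by featureCounts and scaled each library by its DESeq2 size factor. What was deposited is thus a normalised signal for each gene and not the raw counts. The annotation release and strand setting are not given in the sources used here. Whole reads (within 0.01 of a read) were recovered in all 12 libraries, and library totals of reads in genes ran from 26908701 to 36093563. Symbols and GRCh38 positions were matched by identifier for 15908 of the 15987 tested genes.

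limma 3.58.1 (lmFit, contrasts.fit, eBayes with trend, R 4.3.3) was fitted to log2(normalised count + 1) of all 12 libraries with 4 line means, two-sided, for genes with a mean of at least 10, with Benjamini-Hochberg adjustment and a threshold of 0.05. A fold is a ratio of line means, and where a line had at most 3 reads in every library it is a lower bound against 3 reads per library. Differences on this log scale understate the change of low genes. The minimum mean over all 12 libraries also keeps genes that are high in CRISPR Control alone, for which only a rise can be called. The fit was tested on simulated data.

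Gene lists were described by counts and medians only. Genes named were TIMP1, the 12 largest rises and falls at a mean of at least 100 without overlap of libraries, up to 4 members of each list at a mean of at least 50, genes off in 1 line and the most expressed genes of chromosome blocks. Further list members, members of short runs, the run rule, the CG counts and the motif search were chosen after values were seen. The members, lists and comparisons were chosen with earlier results of these data known. The replicate numbers did not pair the libraries (correlations of deviations of same-numbered libraries of -0.08, 0.09 and 0.00). Alternatives were fits with edgeR 4.0.16 and DESeq2 1.42.0 on recovered reads of 11 libraries (TIMP1 KO 2 replicate 3 left out), other filters, scalings and pseudocounts, a replicate block and leaving out each library. A few genes and 1 gene list are not reported here. 4 columns of line means in the file were not used.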

Additional observations from a re-analysis of the deposited data

How the results depend on the processing

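The number of genes that differed between CRISPR Control and WT (8541) was 7427 to 8597 when each of the 6 libraries was left out in turn. It was 7608 with only the 6 libraries compared, 8599 with a pseudocount of 10, 7437 with a minimum mean of 50, 8757 with no minimum, 8466 with equal library totals and 8435 with quantile normalization. edgeR called 8450 and DESeq2 8444. With the replicate number as a replicate block the count was 8490, and the block left every count of the overall comparison within 1.5 times. A minimum absolute log2 difference of 1 moved the count to 2346, with 1142 higher and 1204 lower. The TIMP1 difference stayed negative and past the threshold under every alternative, from -0.29 without CRISPR Control replicate 1 to -0.48 without replicate 3. Windows of 21 genes gave 43 chromosome blocks and windows of 51 genes gave 6, against 19, as follows from the smaller or larger number of genes per median. The medians of all 19 blocks kept their direction without CRISPR Control replicate 1, an alternative added after seeing the data. The medians of 12 lists changed sign under at least 1 setting, that of cytokines and chemokines (0.00546) under 9, that of matrix glycoproteins and proteoglycans under 5 and those of integrin subunits and of laminin chains under 4 each. With a minimum mean of 50, the median of matrix glycoproteins and proteoglycans went from 0.06 to -0.38 and that of metalloproteinases and TIMPs from 0.21 to -0.07. With no minimum mean, the median of lineage transcription factors went from -0.48 to 0.38 and that of cancer-testis genes from -1.19 to 0.36, where members with few reads enter. The number of called laminin chains went from 8 to 5 and of called cadherins and protocadherins from 24 to 14 with a minimum mean of 50, and that of called cytokines and chemokines from 13 to 20 with no minimum. Of 15 mitochondrial transcripts, 6 were called and 10 by edgeR and by DESeq2. SSBP1 took log2 differences of -0.00749 with equal library totals and -0.00614 with edgeR, and of -0.0703 to 0.0636 when 1 library was left out. In the same way CASP2 ran from -0.145 to 0.00738 and COL4A3 from -0.0582 to 0.675. None of these 3 genes passed the test. Depth limits the genes near 0: where a line had at most 3 reads per library, only a bound on the fold can be given.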

Other observations

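The balance of higher and lower calls differed between classes of transcript. Over all tested genes 53.4% were called, 27.2% higher and 26.3% lower. Of 2024 tested long noncoding RNAs, 222 were higher in CRISPR Control and 560 lower, with a median log2 difference of -0.21. The 38.6% called lay below the share over all genes, with few rises. Of 13221 protein-coding genes, 4013 were higher and 3532 lower (median 0.03), 57.1% called. Of 442 processed pseudogenes 76 were higher and 32 lower (median 0.21), and the 24.4% called lay below the share over all genes. Processed pseudogenes share sequence with their parent genes, so their reads are uncertain.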
